A study of Mus musculus with 12 samples.

Results

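The caudal and rostral pieces of the dorsal forebrain were compared within mice in which Egfr, encoding the receptor for epidermal growth factor, was deleted in the brain. All libraries labelled as conditional knockout (cKO) were taken, which gave 6 of the 12 libraries and 3 of the 6 animals of the series (T3, T6 and T80), each with 1 rostral and 1 caudal library. The cKO animals had both copies of Egfr flanked by recombination sites (EgfrF/F) and a recombinase driven by Nestin, a gene of neural stem and progenitor cells. The comparison animals (T4, T8 and T70) are named EgfrF/+ in the study's design and WT in their genotype label, and whether they also have the recombinase is not in the labels. All animals were at postnatal day 5, and the dissected tissue held cortex together with the hippocampal formation, so that a caudal piece can hold more hippocampus than a rostral one. In bulk tissue, fewer cells of a type and less RNA per cell cannot be told apart.

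As background, the front-to-back axis of the cortex is laid out by graded transcription factors: Nr2f1 (COUP-TFI) and Emx2 are highest toward the back, and Sp8 is highest toward the front. The hippocampal formation, with its dentate gyrus, lies caudally and medially, next to the choroid plexus, which secretes cerebrospinal fluid, and to the ciliated ependyma that lines the ventricles. EGFR is a receptor tyrosine kinase bound by EGF, TGF-alpha and HB-EGF, and in the young forebrain it is known for its part in the proliferation of glial progenitors and the maturation of astrocytes. A Nestin-driven recombinase acts in the lineage of neurons, astrocytes and oligodendrocytes, and microglia arise outside that lineage.

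Libraries held from 43810458 (caudal T3) to 87170315 (rostral T6) counts, over 55357 genes. Levels are given as CPM, counts scaled to a common library size over all 12 libraries, and a difference is the log2 CPM of the caudal library minus that of the rostral library of the same animal. Egfr stood at 10.3, 6.37 and 12.6 CPM in the rostral libraries of T3, T6 and T80 and at 5.81, 14.6 and 9.49 CPM in their caudal libraries. Every control library lay higher, between 39.1 and 48.9 CPM, so the targeted gene was low in each library labelled cKO and was not at 0. Between the pieces, Egfr was lower in the caudal library of T3 and T80 and higher in that of T6 (edgeR log2 fold change -0.03, SE 0.43, adjusted p = 0.999, n = 3 animals), and its fold change was 0.40 without T3 and -0.61 without T6.

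The rostral libraries of T6 and T3 stood apart before any contrast was drawn. In the rostral library of T6, 8.178% of the counts came from mitochondrially encoded genes, against 2.362% to 3.984% in the other cKO libraries and 1.848% to 3.628% in the control libraries. Its TMM scaling factor was 0.838, with all others between 0.9703 and 1.043. Ttr, the transthyretin gene of choroid plexus epithelium, was at 360 CPM in the library labelled rostral of T3, where the other 5 rostral libraries of the series were at 0.048 to 0.399 CPM. For these reasons the counts of genes that passed and the medians of the gene lists described are also given without T3 and without T6, as are the fold changes of several single genes.

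No gene passed the test between caudal and rostral cortex of the cKO animals. The contrast was fitted with edgeR's quasi-likelihood test on 20975 genes, with the animal in the model and Benjamini-Hochberg adjustment at 0.05, and 0 genes (0.0%) passed, with a lowest adjusted p of 0.999. At an unadjusted p under 0.05 there were 409 genes (1.95%), of which 153 (0.729%) were higher and 256 (1.22%) lower in caudal cortex. DESeq2 gave 11 genes (0.0524%; 1.68% at an unadjusted p under 0.05), and voom in limma, with weights for library quality, gave 0 (0.0%, with 1465 genes or 6.98% at an unadjusted p under 0.05 and a lowest adjusted p of 0.461). The same edgeR test gave 0 genes without T3 (763 at an unadjusted p under 0.05), 0 without T6 (1375) and 0 without T80 (85). Dropping the animal from the model also gave 0 (348).

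The 3 cKO animals did not share a direction for most genes. Of the 20956 tested genes that also passed the filter over all 12 libraries, 2098 (10%) were higher in the caudal library of all 3 animals and 2325 (11.1%) were lower in all 3, together 21.1%. In the control animals 49.3% of 20489 genes had 1 direction in all 3. The 3 caudal cKO libraries lay entirely above the 3 rostral ones for 545 genes (2.6%) and entirely below for 647 (3.09%), together 5.69%. In control tissue the corresponding shares were 16.3% and 15.1%, together 31.4%.

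Across 21633 genes, the differences of T3 and T6 had a Pearson correlation of -0.406, those of T3 and T80 of 0.124, and those of T6 and T80 of 0.117. These are correlations across genes, which are not independent replicates, and they are given as descriptions. Pairs of control animals gave 0.485 to 0.554. T6 resembled the control animals, with 0.365 to 0.531, whereas T80 gave 0.0868 to 0.186 and T3 gave -0.227 to -0.108. The differences were also widest in T6, with an SD across genes of 0.843, against 0.504 in T3, 0.458 in T80 and 0.486 to 0.544 in the control animals.

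The regional genes of control tissue showed the same split. In control animals 3137 of 20489 genes (15.3%) passed the same edgeR test (28.6% at an unadjusted p under 0.05), 1698 (8.29%) higher and 1439 (7.02%) lower in caudal cortex. This number was 1634 without T8, and it was 0 in a single fit over all 12 libraries, in which both genotypes share 1 estimate of the spread. Of the 1698 caudal-high genes, 487 (28.7%) were also higher in the caudal library of T3, 1543 (90.9%) in that of T6 and 918 (54.1%) in that of T80. The medians of the differences were -0.21 (T3), 0.93 (T6) and 0.03 (T80), against 0.55 to 0.70 in the control animals that chose them. All 3 cKO animals followed the control direction for 254 of these genes (15%), and T6 alone did so for 573 (33.7%).

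For the 1439 genes lower in control caudal cortex, 660 (45.9%) were lower in T3, 1171 (81.4%) in T6 and 880 (61.2%) in T80. Median differences were 0.03 (T3), -0.44 (T6) and -0.05 (T80), against -0.40 to -0.32 in the control animals. On a scale where the mean control rostral library is at 0 and the mean control caudal library at 1, averaged over the 3137 genes, T6 ran from -0.163 (rostral) to 1.16 (caudal). T80 ran from 0.677 to 0.808. For T3 the library labelled rostral was at 0.847 and that labelled caudal at 0.506, the reverse of the control order. The rostral libraries of T3 and T80 thus lay nearer to control caudal than to control rostral tissue on these genes.

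**Figure D1:**
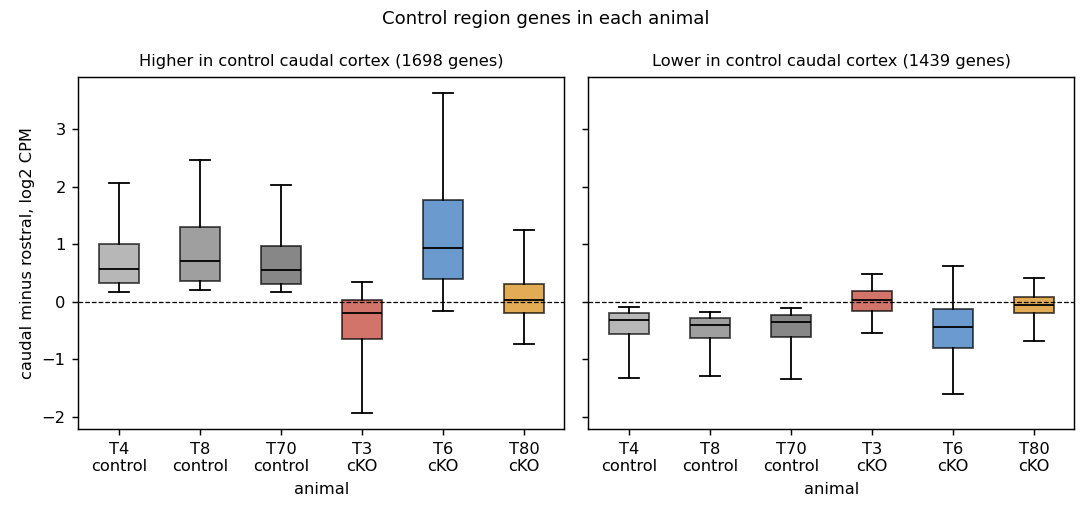
Caudal minus rostral difference (log2 CPM) of the genes that passed in control tissue, per animal, for 1698 genes higher and 1439 genes lower in control caudal cortex. Boxes span the quartiles with the median as a line, and whiskers reach the 5th and 95th percentiles; T6 has the same sign of median as the controls (0.93 and -0.44), while T3 (-0.21 and 0.03) and T80 (0.03 and -0.05) lie near or across 0.

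Single genes show what these medians are made of. Cbln4, which encodes a cerebellin that organises synapses, was at 2.21 to 2.89 CPM in control rostral and 23.2 to 32.7 CPM in control caudal libraries (log2 fold change 3.39, SE 0.09, edgeR adjusted p = 4.7e-08). In the cKO animals its rostral levels were 16.7 (T3), 1.26 (T6) and 19.4 CPM (T80), and its caudal levels were 8.22, 18.6 and 15 CPM. Only T6 had the control order, and the rostral and caudal cKO groups overlapped (log2 fold change 0.55, SE 1.12, adjusted p = 0.999). Without T3 the fold change was 1.69, and without T6 it was -0.69.

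Dsc3, a desmosomal cadherin, was at 0.352 to 0.593 CPM in control rostral and 11.6 to 17.9 CPM in control caudal libraries. Its cKO rostral libraries held 11.1 (T3), 0.808 (T6) and 11.8 CPM (T80) and its caudal libraries 6.46, 13.6 and 7.79 CPM. As with Cbln4, the rostral levels of T3 and T80 were near the control caudal range. Nr2f2 (COUP-TFII), a nuclear receptor of caudal and medial cortex that was picked after its values were seen, was at 19.3 to 22.8 CPM in control rostral and 79.9 to 111 CPM in control caudal libraries. Its cKO rostral levels were 99.8 (T3), 24.1 (T6) and 57.7 CPM (T80), and its caudal levels were 46.3, 141 and 44.8 CPM, so that T3 and T80 were again in the opposite order to T6.

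The other caudal genes with the largest control differences divided in a similar way. Gpr101, an orphan G-protein coupled receptor, had differences of -1.97 (T3), 4.02 (T6) and -0.43 (T80). Chrm5, the M5 muscarinic acetylcholine receptor, had -0.62, 4.20 and 0.82, and Htr5b, a serotonin receptor, had -0.35, 2.54 and 0.10. Lhx9, a LIM-homeodomain factor, had -0.30, 4.99 and 2.20, so it was on the control side in both T6 and T80. None of these genes passed in the cKO animals (adjusted p = 0.999 for each, edgeR).

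Among genes with the largest negative control differences, Slc6a4, the serotonin transporter, was the one that was lower in the caudal library of every cKO animal. Its rostral levels were 4.17 (T3), 1.73 (T6) and 2.27 CPM (T80), and its caudal levels were 2.61, 0.613 and 1.65 CPM. The fold change in cKO was -0.86 (SE 0.28, edgeR adjusted p = 0.999), against -2.05 (SE 0.15, adjusted p = 1.96e-05) in control tissue. Syt6, a synaptotagmin found in deep-layer neurons, differed by 0.31 (T3), -2.28 (T6) and -0.37 (T80). Lmod3 differed by 1.16, -3.46 and -0.15, and Rxfp2, a relaxin family receptor, by 0.68, -3.21 and 0.56. Dct, a melanin synthesis enzyme, differed by -1.17, -1.49 and 1.36, and its control call was lost without T8 (adjusted p = 0.47). Ostn, which encodes osteocrin, was listed at 0 in the caudal library of T6 and was at 3.29 and 2.35 CPM in the caudal libraries of T3 and T80.

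**Figure D2:**
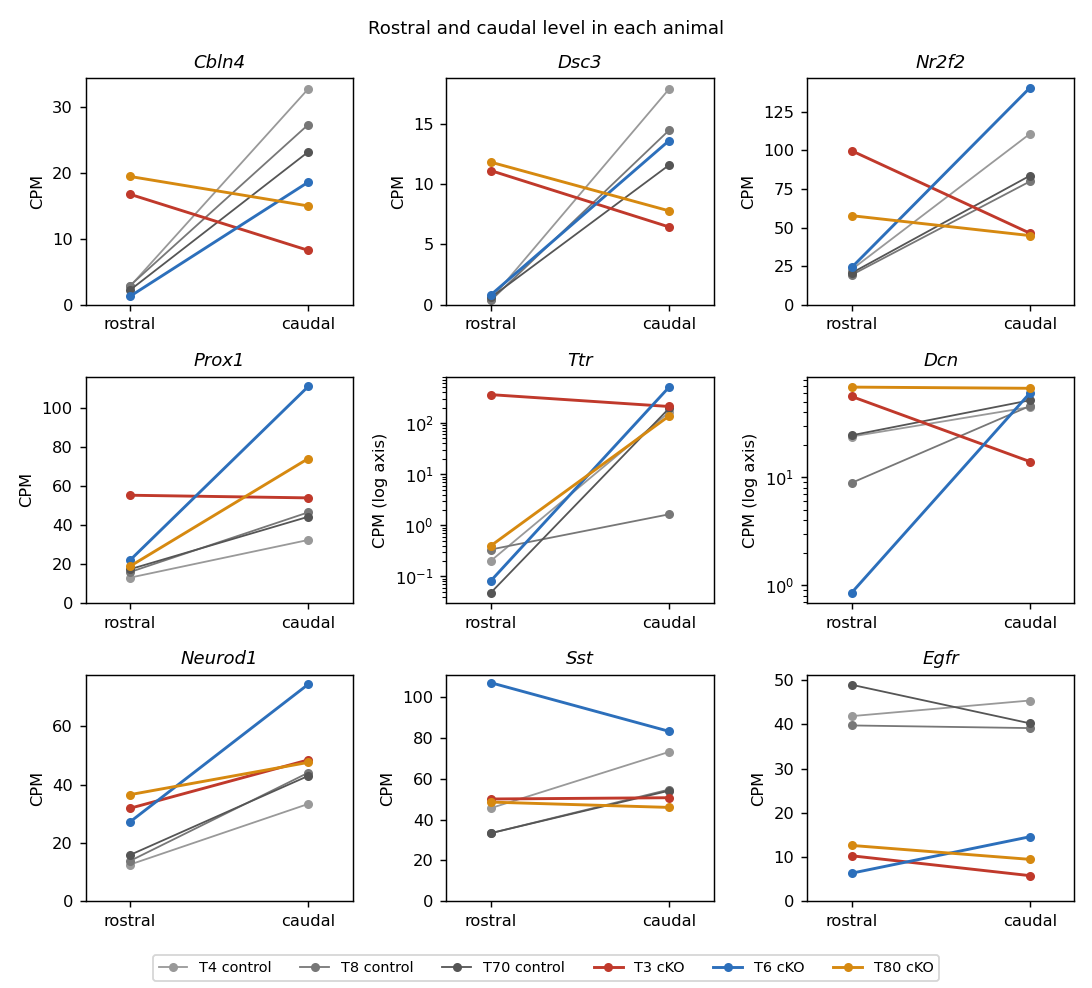
Level (CPM) of 9 genes in the rostral and caudal library of each animal, with a line joining the pieces of 1 animal; Ttr and Dcn are on log axes. For Cbln4, Dsc3 and Nr2f2 the lines of T3 and T80 slope down where those of T6 and the 3 controls slope up, and Egfr is lower in every cKO library (5.81 to 14.6 CPM) than in any control library (39.1 to 48.9 CPM).

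The factors that pattern cortical areas were described next. Of 25 tested genes on this list, 0 passed, 2 were higher and 0 lower at an unadjusted p under 0.05, and 7 were higher and 1 lower in all 3 cKO animals. Over all genes tested, 0.729% were higher at an unadjusted p under 0.05, and 10% were higher and 11.1% lower in all 3 animals. The median fold change of the list was 0.10 (0.15 without T3, 0.08 without T6), beside -0.01 over all genes tested. Emx2 was at 18.1, 13.1 and 8.56 CPM in the rostral and 20.5, 29.4 and 20.7 CPM in the caudal libraries of T3, T6 and T80. Its 3 caudal levels lay above its 3 rostral levels (log2 fold change 0.88, SE 0.26, edgeR adjusted p = 0.999), and in control tissue the fold change was 0.29 (SE 0.08, adjusted p = 0.0392).

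Nr2f1 was at 124, 115 and 159 CPM in the rostral and 152, 157 and 134 CPM in the caudal libraries of T3, T6 and T80. It was thus higher caudally in T3 and T6 and lower in T80 (0.16, SE 0.16, adjusted p = 0.999; 0.11 without T3 and 0.03 without T6), whereas it passed in control tissue (0.58, SE 0.07, adjusted p = 0.000782). Sp8, the rostral factor, was lower caudally in all 3 cKO animals by -0.33, -0.22 and -0.32. In the control animals the corresponding differences were -1.19 (T4), -0.85 (T8) and -1.22 (T70), each larger than any in the cKO animals. The edgeR test of the difference between genotypes passed with all animals neither for Sp8 (interaction 0.80, SE 0.16) nor for Nr2f1 (-0.42, SE 0.20). For Sp8 its adjusted p was 0.0291 without T6 in edgeR, and with all animals 0.141 in DESeq2 and 0.0283 in voom. Lhx2, a selector of cortical identity, had cKO differences of 0.24, 0.18 and 0.23, and Bhlhe22, a repressor in area specification, had 0.41, 0.25 and 0.28. Neither passed (adjusted p = 0.999, edgeR).

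Of 26 tested hippocampal genes, 19 were higher and 7 lower caudally in T6, 14 and 12 in T80, and 10 and 16 in T3. In cKO 0 of them passed, and 5 were higher and 2 lower in all 3 animals (10% and 11.1% of all genes). In control tissue 11 were higher and 4 lower past the test (8.29% and 7.02% of all genes). Median differences were -0.09 (T3), 0.70 (T6) and 0.20 (T80). The list summed to 1872, 2582 and 1756 CPM rostrally and 1966, 2065 and 2057 CPM caudally in T3, T6 and T80. Control sums were 1890 to 2079 CPM rostrally and 1595 to 1781 CPM caudally. The sum was thus lower caudally in T6 and the control animals, although their medians were positive. Prox1, the dentate granule cell factor, was at 55.2, 21.9 and 18.8 CPM in the rostral and 53.8, 111 and 74 CPM in the caudal libraries of T3, T6 and T80. T6 and T80 thus had the order of the control animals, in which Prox1 passed (1.41, SE 0.07, adjusted p = 1.34e-06), and the 2 libraries of T3 were nearly equal. Without T3, Prox1 had one of the lowest adjusted p-values of the contrast (log2 fold change 2.16, edgeR adjusted p = 0.146). The list's median fold change was 0.26 with all animals, 0.43 without T3 and 0.11 without T6. Fibcd1, a gene of field CA1, differed by -0.43, 3.28 and 1.70.

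Genes of intermediate progenitors and new neurons, which the dentate gyrus still makes at this age, had a median difference of 0.08 (T3), 1.61 (T6) and 0.88 (T80). Of 12 tested members, 0 passed, 4 were higher and 0 lower at an unadjusted p under 0.05 (0.729% and 1.22% of all genes), and 6 were higher and 1 lower in all 3 animals (10% and 11.1% of all genes). In control tissue 8 of the 12 passed, all higher, beside 8.29% of all genes. Neurod1, a proneural factor, was at 31.9, 27.3 and 36.6 CPM in the rostral and 48.5, 74.5 and 47.7 CPM in the caudal libraries of T3, T6 and T80. Its groups did not overlap (0.81, SE 0.23, edgeR adjusted p = 0.999), and the fold change was 0.92 without T3 and 0.49 without T6. Eomes (Tbr2), the factor that marks intermediate progenitors, differed by 0.00, 1.88 and 2.97 and Neurog2, which acts before it, by 0.48, 3.35 and 2.73. Igfbpl1, a gene of newborn neurons, differed by 0.25, 1.77 and 1.39. The list's median fold change was 0.97 with all animals, 1.32 without T3 and 0.43 without T6. Members lower caudally numbered 5 (T3), 3 (T6) and 4 (T80). The list summed to 1890, 2588 and 2129 CPM rostrally and 2045, 1969 and 2092 CPM caudally in T3, T6 and T80. Control sums were 1714 to 1927 CPM rostrally and 1645 to 1767 CPM caudally. The sum was thus lower caudally in T6, T80 and the control animals, although their medians were positive.

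Markers of tissue next to the cortex are given as whole lists. The 18 choroid plexus genes summed to 535, 57.3 and 115 CPM in the rostral and 305, 687 and 275 CPM in the caudal libraries of T3, T6 and T80. In control tissue the sums were 59.9 to 77.4 CPM rostrally and 83 to 308 CPM caudally. All 18 were lower in the caudal library of T3 and all 18 higher in that of T6, and the median fold change was 1.23 with all animals, 2.56 without T3 and 0.00 without T6. Ttr was at 360, 0.0822 and 0.399 CPM in the rostral and 211, 506 and 138 CPM in the caudal libraries of T3, T6 and T80. It was the only higher gene among those DESeq2 called (adjusted p = 0.0478). The part of this tissue in the hippocampal and progenitor differences was not tested.

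Meningeal fibroblast genes, which encode collagens and other matrix proteins of the brain's covering, gave the widest split among the lists. Their 18 members summed to 1291, 83.1 and 1546 CPM in the rostral and 243, 1350 and 1577 CPM in the caudal libraries of T3, T6 and T80, and to 315 to 689 and 994 to 1254 CPM in control rostral and caudal libraries. Median differences were -2.09 (T3), 4.22 (T6) and 0.03 (T80). All 18 were lower in T3 and all 18 higher in T6, and the median fold change turned from 0.39 with all animals to 2.29 without T3 and -1.01 without T6. Dcn, which encodes decorin and leads this list, was at 56, 0.849 and 68.4 CPM rostrally and 13.9, 60.2 and 66.7 CPM caudally in T3, T6 and T80.

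Astrocyte genes were higher caudally in T6 for 24 of 24 members (median 1.58) and in T80 for 22 of 24 (median 0.22), and lower in T3 for 21 of 24 (median -0.25). None passed in cKO, and in control tissue 5 were higher and 5 lower past the test (8.29% and 7.02% of all genes). Summed levels were 3377, 1548 and 2609 CPM in the rostral and 2937, 3875 and 3076 CPM in the caudal libraries of T3, T6 and T80, so the rostral library of T6 was the lowest. Control sums were 3353 to 4047 CPM. Aqp4, the water channel of astrocyte endfeet, was at 166, 48.8 and 129 CPM rostrally and 115, 184 and 145 CPM caudally. The median fold change of the list was 0.50 with all animals, 0.91 without T3 and 0.00 without T6. For Aqp4 it was 0.49 with all animals, 1.05 without T3 and -0.18 without T6.

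Kcnj10 (Kir4.1), the potassium channel of astrocytes, was at 56.9, 43.5 and 45 CPM in the rostral and 51.8, 79.2 and 60.4 CPM in the caudal libraries of T3, T6 and T80. Its control libraries were lower caudally, with 109 to 112 CPM rostrally and 74.1 to 79.9 CPM caudally (log2 fold change -0.52, SE 0.05, edgeR adjusted p = 9.99e-05). In the cKO animals the fold change was 0.38 (SE 0.21, adjusted p = 0.999; 0.65 without T3 and 0.15 without T6), and the test of the difference between genotypes did not pass (interaction 0.91, SE 0.23, adjusted p = 1). Radial glia genes had medians of -0.29, 1.18 and 0.25, with 14 of 14 lower in T3 and 14 of 14 higher in T6, and their median fold change was 0.38 with all animals, 0.74 without T3 and -0.00 without T6.

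Microglial, endothelial and immediate early genes were higher caudally in T6 and mostly lower in T3. Their medians in T6 were 1.04, 0.81 and 1.09, in this order. In the control animals they were 0.09 to 0.27, -0.07 to 0.04 and 0.02 to 0.30, below those of T6. The rostral library of T6 had the lowest sums of all 12 libraries for microglia (141 CPM) and endothelial genes (328 CPM). Microglia genes were higher in T6 for 17 of 17 members (median 1.04) and lower in T3 for 16 and in T80 for 14 of 17. Endothelial genes were higher in T6 for 16 of 16 members and lower in T3 for 16 of 16. Immediate early genes, which respond to neuronal activity, were higher in T6 for 16 of 16 members, with Arc at 1.86 CPM rostrally and 26.4 CPM caudally in T6 and at 3.16 to 3.56 CPM in the other 4 cKO libraries. Without T6 the median fold change was -0.41 for microglia, -0.34 for endothelial and -0.15 for immediate early genes, and without T3 it was 0.35, 0.36 and 0.37. Upper-layer neuron genes went the other way in T6, with a median of -0.87, against 0.01 in T3 and 0.19 in T80, and their median fold change was -0.34 without T3 and 0.21 without T6.

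**Figure D3:**
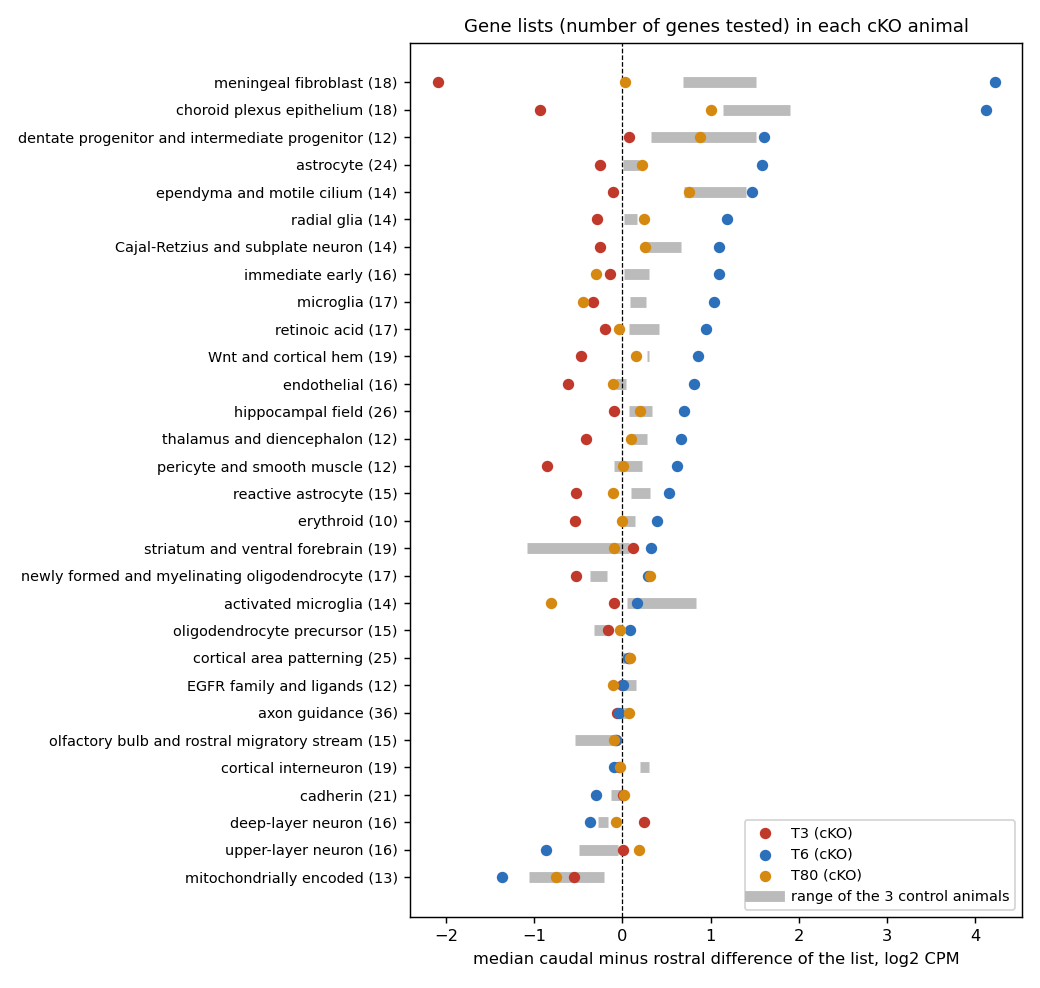
Median caudal minus rostral difference (log2 CPM) of each gene list in the 3 cKO animals (points), with the range of the 3 control animals as a grey bar and the number of genes tested in parentheses. T6 lies far to the right and T3 to the left of 0 for meningeal (4.22 and -2.09) and choroid plexus genes (4.12 and -0.93), and all 3 points are below 0 for mitochondrially encoded genes.

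Mitochondrially encoded genes were the list with the most uniform direction. All 13 tested members were lower in the caudal library of all 3 cKO animals, and 12 were lower at an unadjusted p under 0.05, beside 11.1% and 1.22% of all genes. None passed the edgeR test. Median differences were -0.55 (T3), -1.37 (T6) and -0.75 (T80), and -0.21 (T4), -0.71 (T8) and -1.06 (T70) in the control animals. In control tissue 5 of the 13 members passed, all lower, beside 7.02% of all genes. The median fold change was -0.91 with all animals, -1.06 without T3 and -0.68 without T6.

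Mt-Nd1, a subunit of complex I, was at 4610, 14311 and 4638 CPM in the rostral and 2911, 4862 and 2595 CPM in the caudal libraries of T3, T6 and T80 (mt-Nd1 log2 fold change -1.02, SE 0.21, adjusted p = 0.999, edgeR). The rostral library of T6 was the highest of the 6. The large ribosomal RNA, mt-Rnr2, was at 3149, 3482 and 2993 CPM rostrally and 1948, 2437 and 1908 CPM caudally, without such an excess in T6. Its groups did not overlap (-0.62, SE 0.12, edgeR adjusted p = 0.999), and its control fold change was -0.58 (SE 0.15, adjusted p = 0.0618). Mitochondrial genes made up most of the DESeq2 calls, with mt-Rnr1, mt-Rnr2, mt-Tl1, mt-Nd2, mt-Co1, mt-Nd3 and mt-Nd4l lower caudally and adjusted p from 0.00319 to 0.0121. DESeq2 did not call mt-Nd1. The remaining lower calls, Gm28438, Gm29216 and Gm13339, are model names, with log2 fold changes of -0.89, -0.91 and -0.92. Their DESeq2 adjusted p-values were 0.00139, 6.03e-08 and 0.0371, so the lowest of all DESeq2 calls was that of Gm29216. How reads shared by mitochondrial genes and nuclear copies were counted is not given, so these levels are uncertain.

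Genes with 1 direction in all 3 cKO animals were then ranked by p, so that their shared direction is a condition of the choice; none passed. Ccn2 (CTGF; GRCm39 chromosome 10, 24471340 to 24474581), a secreted matrix protein that marks subplate and deepest-layer neurons, was at 13.5, 11.3 and 9.6 CPM in the rostral libraries of T3, T6 and T80. Its caudal levels were 20.7, 21.8 and 14.8 CPM, all above the rostral ones. The means were 11.5 ± 1.96 and 19.1 ± 3.78 CPM (SD, n = 3), with a log2 fold change of 0.73 (SE 0.13, edgeR adjusted p = 0.999). In control tissue its differences were 0.05, 0.27 and -0.26.

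Strip2, a member of the STRIPAK complex (GRCm39 chromosome 6, 29917011 to 29959680), was at 4.59, 3.42 and 4.29 CPM rostrally and 8.58, 6.07 and 6.94 CPM caudally (0.81, SE 0.15). All 3 cKO animals were higher caudally, whereas control differences were -0.89 (T4), 0.03 (T8) and -1.51 (T70). Strip2 did not pass in control tissue (-0.83, SE 0.33, edgeR adjusted p = 0.227). Its interaction between genotype and region was 1.61 (SE 0.36), which did not pass in edgeR with all animals. The adjusted p of this interaction was 0.0274 in DESeq2 and 0.197 in voom. Sema3c, a secreted guidance cue, was at 59.5, 48.3 and 52.1 CPM rostrally and 71.5, 86 and 82.9 CPM caudally, with no overlap (0.59, SE 0.14). It passed in control tissue at a smaller fold change (0.28, SE 0.06, edgeR adjusted p = 0.00809). Lefty2, an inhibitor of Nodal signalling, differed by 0.50, 0.91 and 0.41 in the cKO animals and by 0.96, 1.33 and 1.76 in the control animals. Nrep, a protein of growing neurons, had cKO differences of 0.46, 0.57 and 0.33 and a control fold change of 0.54 (SE 0.07, edgeR adjusted p = 0.000442). Crabp1, which binds retinoic acid, and Tac1, the precursor of substance P, were also higher caudally in every cKO animal, by 0.91 to 1.97 and 0.51 to 0.79.

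Among lower genes outside the mitochondrial set, the smallest p-values were those of Chrna3 and S100a11. Chrna3, a nicotinic acetylcholine receptor subunit (GRCm39 chromosome 9, 54917395 to 54933846), was at 5.01, 10.3 and 7.64 CPM rostrally and 3.16, 4.5 and 3.96 CPM caudally in T3, T6 and T80. The caudal levels were below every rostral level (-0.94, SE 0.18, edgeR adjusted p = 0.999). S100a11, a calcium-binding protein (GRCm39 chromosome 3, 93427795 to 93433594), was at 9.82, 21.7 and 14.1 CPM rostrally and 6.68, 12.3 and 9.71 CPM caudally (-0.64, SE 0.13). Each animal was lower caudally, although the caudal library of T6 was above the rostral library of T3. Control S100a11 was higher caudally in all 3 animals, by 0.20, 0.30 and 0.23.

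**Figure D4:**
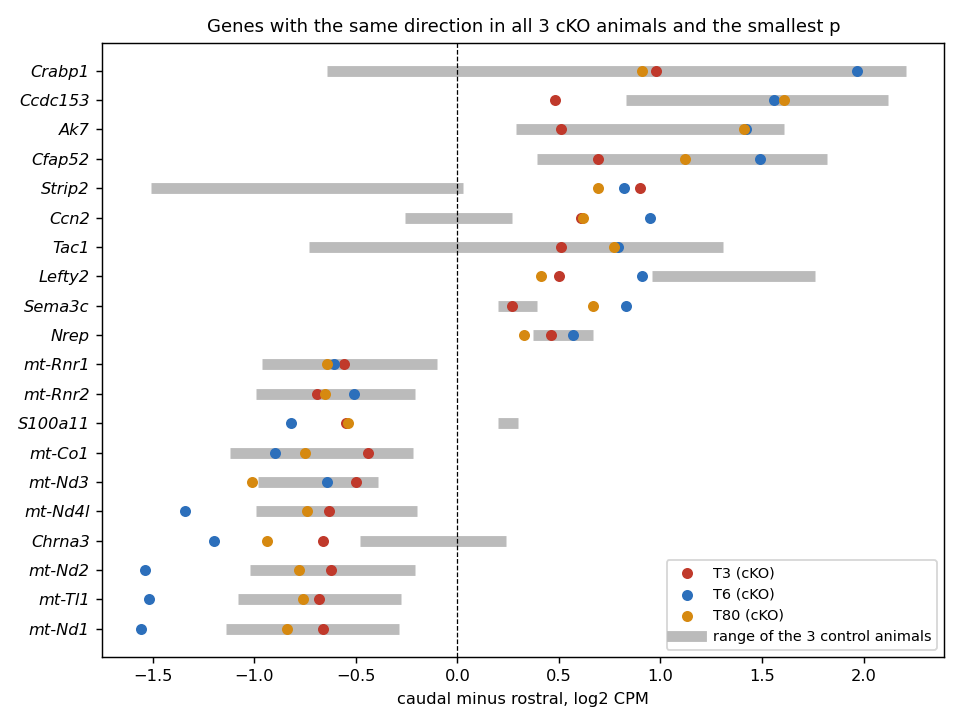
Caudal minus rostral difference (log2 CPM) in T3, T6 and T80 for the 10 higher and 10 lower genes with the smallest p among those with 1 direction in all 3 cKO animals, with the range of the 3 control animals in grey. The genes were chosen for this direction, and none passed after adjustment in edgeR. S100a11, Ccn2, Strip2 and Chrna3 lie outside the control range in every cKO animal, as does Lefty2, which has the control direction at a smaller size.

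Ccdc153, Cfap52 and Ak7, which were among the 10 higher genes, are set beside the ependyma and motile cilium list, of which Ccdc153 alone is a member. Ccdc153, a component of the ciliary axoneme, was at 2.46, 1.31 and 0.798 CPM rostrally and 3.45, 3.94 and 2.49 CPM caudally in T3, T6 and T80 (1.23, SE 0.32, edgeR adjusted p = 0.999). Cfap52, a ciliary microtubule protein, differed by 0.69, 1.49 and 1.12, and Ak7, an adenylate kinase of cilia, by 0.51, 1.42 and 1.41. Of the 14 tested members of the list, 3 were higher in all 3 animals and 2 at an unadjusted p under 0.05, beside 10% and 0.729% of all genes. In T3 only 3 of the 14 were higher and 11 were lower, whereas 14 were higher in T6 and 13 in T80. The list had medians of -0.11, 1.47 and 0.75, with a median fold change of 0.67 (1.12 without T3, 0.26 without T6). In control tissue 11 of its members passed, all higher, beside 8.29% of all genes. Foxj1, the transcription factor that drives motile cilium genes, was at 10.9, 6.9 and 5.97 CPM rostrally and 12, 15.7 and 10.4 CPM caudally.

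The 250 bases upstream of these 3 cilium genes are shown because each of the genes was higher caudally in all 3 cKO animals, which is how they were chosen. RFX factors, which act with Foxj1 on motile cilium genes, bind the X-box, and capitals mark its half-site letters GTTGCC, searched on both strands. Sequences are from RefSeq on GRCm38.p6, 5′ to 3′ on the gene's strand, ending at the base before the start site.
Cfap52, chr11:67965643-67965892, minus strand: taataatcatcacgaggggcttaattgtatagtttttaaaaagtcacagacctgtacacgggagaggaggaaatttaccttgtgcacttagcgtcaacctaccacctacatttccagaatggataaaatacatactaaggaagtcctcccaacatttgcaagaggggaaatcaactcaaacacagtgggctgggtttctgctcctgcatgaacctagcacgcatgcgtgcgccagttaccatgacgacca
Ak7, chr12:105705732-105705981, plus strand: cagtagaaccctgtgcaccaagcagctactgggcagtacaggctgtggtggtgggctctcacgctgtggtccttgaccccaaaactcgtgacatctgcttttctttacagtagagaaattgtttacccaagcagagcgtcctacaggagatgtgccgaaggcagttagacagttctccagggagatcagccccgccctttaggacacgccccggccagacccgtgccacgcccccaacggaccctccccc
Ccdc153, chr9:44240427-44240676, plus strand: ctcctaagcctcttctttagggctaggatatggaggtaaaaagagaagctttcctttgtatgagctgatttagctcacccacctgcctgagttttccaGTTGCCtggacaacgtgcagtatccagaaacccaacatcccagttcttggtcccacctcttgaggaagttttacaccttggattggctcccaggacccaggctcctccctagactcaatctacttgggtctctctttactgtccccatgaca
The letters occur once, in Ccdc153, 152 bases before the start site. They occur in 3425 of all 32851 upstream windows (10.4%) and in 4 of the 11 windows matched to the cilium list (36.4%). A match in these letters is a description of the window and not a binding site.

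The difference between the genotypes was tested directly as an interaction on all 12 libraries with the animal in the model. It gave 0 of 21633 genes (0.0%) past the edgeR test, with 943 (4.36%) at an unadjusted p under 0.05. DESeq2 gave 16 (0.074%; 3.03% at an unadjusted p under 0.05) and limma voom with quality weights 534 (2.47%), of which 147 were higher and 387 lower in the cKO difference than in the control difference. Without T6, the edgeR test gave 739 genes (267 higher, 472 lower), without T3 it gave 1, and leaving out any other animal gave 0.

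Sst, the neuropeptide somatostatin of a class of cortical interneurons, had the smallest p of the interaction. In control tissue it was at 33.3 to 45.6 CPM rostrally and 54.1 to 73.1 CPM caudally, with differences of 0.68, 0.71 and 0.70. The cKO rostral libraries of T3, T6 and T80 held 50, 107 and 48.5 CPM and the caudal ones 50.7, 83.1 and 45.9 CPM, so the pieces were nearly level in T3 and T80 and lower caudally in T6. The interaction was -0.84 (SE 0.12, edgeR adjusted p = 1 with all animals and 0.00344 without T6). With all animals its adjusted p was 0.00297 in DESeq2 and 0.00804 in voom. Gad1, the GABA-synthesising enzyme, differed by 0.05, 0.82 and 0.00 in the cKO animals and passed in control tissue (0.72, SE 0.08, adjusted p = 0.000308).

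The medians of the cortical interneuron list were near 0 in the cKO animals and positive in the control animals. Of its 19 tested members, 0 passed in cKO, with 9 higher and 10 lower in each of the 3 animals. In control tissue 10 were higher and 2 lower past the test (8.29% and 7.02% of all genes). Its medians were -0.04, -0.10 and -0.03 in T3, T6 and T80 and 0.25, 0.30 and 0.20 in T4, T8 and T70, and its cKO median fold change was -0.04 (-0.06 without T3, 0.02 without T6). Its members summed to 1142, 1129 and 1080 CPM rostrally and 1032, 1339 and 1141 CPM caudally in T3, T6 and T80. Control sums were 836 to 953 CPM rostrally and 1007 to 1180 CPM caudally. The sum was thus higher caudally in T6, T80 and the control animals, and lower in T3. The list shares Prox1, Reln and Calb2 with hippocampal or Cajal-Retzius genes.

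Several other genes differed little between the pieces of any cKO animal but passed in control tissue. Smtnl2, a smoothelin-like protein, was at 6.2 to 7.06 CPM in the rostral and 6.08 to 6.64 CPM in the caudal cKO libraries, and its control fold change was 0.86 (SE 0.09, adjusted p = 0.000157). The groups overlapped in cKO, and the interaction was -0.89 (SE 0.15, edgeR adjusted p = 1 with all animals and 0.0103 without T6; DESeq2 0.0497 and voom 0.0117 with all animals). Slc7a3, a transporter of cationic amino acids, differed by -0.09, -0.06 and -0.16 in the cKO animals and by 0.92, 0.65 and 0.62 in the control animals. Klhl25, a ubiquitin ligase adaptor, differed by -0.10, 0.02 and -0.00 in the cKO animals, against a control fold change of -0.50 (SE 0.06, adjusted p = 0.00024). Its interaction was 0.48 (SE 0.10), which did not pass in edgeR with all animals (adjusted p = 0.032 without T6). With all animals its adjusted p was 0.378 in DESeq2 and 0.0222 in voom. Emid1 differed by 0.12, 0.05 and 0.10 in the cKO animals and by -0.77, -0.59 and -0.39 in the control animals.

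Cr2, a complement receptor, was at 4.36, 2.85 and 6.17 CPM in the rostral and 3.76, 5.39 and 3.96 CPM in the caudal libraries of T3, T6 and T80. Its control libraries held 0.719 to 0.845 CPM rostrally and 3.98 to 5.67 CPM caudally. Each cKO rostral level was thus above every control rostral level, while the caudal ranges were close. The interaction of Cr2 was -2.66 (SE 0.41, edgeR adjusted p = 1 with all animals and 0.000546 without T6; DESeq2 2.04e-05 and voom 0.00121 with all animals). Glra3, a glycine receptor subunit, Gpr153, an orphan receptor, and Tpbg, a membrane glycoprotein, completed the set, with interactions of -0.83, 0.55 and 0.73 (adjusted p = 1 for each with all animals, and 0.0183, 0.0398 and 0.0123 without T6, edgeR). With all animals, voom gave adjusted p = 0.02, 0.0522 and 0.0156 for them, and DESeq2 gave 0.0616, 0.359 and 0.237.

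Of 12 tested members of the EGFR family and its ligands, 0 passed and 0 had an unadjusted p under 0.05, while 1 was higher and 2 were lower in all 3 cKO animals (10% and 11.1% of all genes). Tgfa, Erbb4 and Nrg4 were these 3. Erbb4, the neuregulin receptor of interneurons, was at 109, 102 and 117 CPM rostrally and 95.9, 95.6 and 93.4 CPM caudally in T3, T6 and T80, so that its pieces did not overlap (-0.20, SE 0.10, edgeR adjusted p = 0.999). Tgfa, which encodes TGF-alpha, differed by 0.28, 0.87 and 0.13, and Hbegf, which encodes HB-EGF, by -0.01, 0.01 and 0.06. Erbb2, the shared co-receptor, differed by -0.48, 1.47 and -0.01, in the same order as Egfr itself (-0.82, 1.19 and -0.41).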

How the data were processed

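The submitters' processing notes name STAR 2.7.8a, featureCounts 2.0.3 and the build GRCm39. Which annotation was used, whether strand was considered and how shared reads were counted is not given in the sources. The authors deposited 1 file of expected counts per library, in which 9.69% to 14.3% of values were fractional; these were rounded before testing, and the tests planned for whole counts were kept. Total counts bound the precision at low levels, and counting error is only part of the spread between animals.

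Libraries that share a T number were treated as the pieces of 1 animal; the labels do not say so in words. As a check, the deviations of both pieces from their group means correlated across genes at r = 0.0362 (T3), -0.0037 (T6), 0.453 (T80), 0.259 (T4), 0.237 (T8) and 0.326 (T70). Pieces of different animals gave -0.297 to 0.179 in cKO, with rostral T6 and caudal T3 the highest, and -0.236 to 0.00258 in control, so the cKO data do not show the pairing of T3 and T6. Where T numbers are not separate animals, the p-values measure only the spread between these samples.

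Genes were kept with filterByExpr, scaled by TMM and fitted in edgeR 4.0.16 (R 4.3.3) by the robust quasi-likelihood test with the animal as a block and Benjamini-Hochberg adjustment over all genes at 0.05. Per-animal differences use log2 CPM with a prior count of 2. Standard errors were computed as the size of the log2 fold change over sqrt(F). The fit was tested on simulated counts drawn with the spread of the control animals. This does not show how the fit performs at the spread of the cKO animals. Alternatives were DESeq2 1.42.0, limma 3.58.1 voom with quality weights, no block, RLE and upper-quartile scaling, no filter, 1 CPM in 3 libraries, no mitochondrial genes, 1 fit over all 12 libraries and each animal left out.

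Named genes are Egfr, per direction up to 10 cKO genes with the smallest p (mean CPM of 1 or more, 1 direction in all 3 animals, not a model name or sex-linked), the first member and up to 4 with the smallest p of each list described, and up to 6 each way from control and the interaction. Other members, and Nr2f2, Fibcd1 and the Gm genes, were named after their values were seen. The comparison and the gene lists were chosen with earlier results of these data known. Upstream sequences are RefSeq's, and proteins are not analysed here.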

Additional observations from a re-analysis of the deposited data

Results flagged for a closer look

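These results had 1 direction in every cKO animal and the opposite direction in every control animal, or opposite medians in the case of the list. Ccl4 is an exception, since its control counts were too few for a direction. With all animals the interaction did not pass in edgeR for any of the genes (adjusted p = 1). It passed in voom for S100a11 (adjusted p = 0.0123), Emid1 (0.0165), Tpbg (0.0156), Slc7a3 (0.0123) and Glra3 (0.02), and in DESeq2 for S100a11 and Slc7a3 (0.0274 each). Without T6 the interaction passed in edgeR for S100a11 (adjusted p = 0.0134), Emid1 (0.0196), Tpbg (0.0123), Slc7a3 (0.0122) and Glra3 (0.0183). The genes were picked for their opposite directions, and for the list the difference was not tested. The cortical interneuron list had a median fold change of -0.04 in cKO and 0.25 in control.

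Log2 fold changes in cKO were -0.64 for S100a11 (control 0.24), 0.09 for Emid1 (control -0.59), 0.35 for Tpbg (control -0.38), -0.10 for Slc7a3 (control 0.73) and -0.24 for Glra3 (control 0.60). The upper-layer receptor gene Unc5d had -0.18 in cKO and 0.36 in control. The stress protein gene Hspb1 had -0.40 in cKO and 0.52 in control. Among immune genes, the scavenger receptor Msr1 had -0.72 in cKO and 0.88 in control, and the chemokine Ccl4 had -0.80 in cKO, with 0 to 0.0592 CPM in the control libraries, which are too few counts for a direction in control. Nrg4, a neuregulin ligand, had -0.44 in cKO and 0.43 in control, at 0.122 to 0.459 CPM in all 12 libraries.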

How the results depend on the processing

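The count of 0 cKO genes held under the alternatives run, except for DESeq2 with 11 genes, of which 5 are list members. Leaving out 1 animal gave 0 cKO genes and 0 list members each time, 1634 to 3440 control genes, and 0 to 739 interaction genes. With the animal dropped from the model (no replicate block), 0 genes passed in cKO, 2499 in control and 0 in the interaction. Control gave 0 in 1 fit over all 12 libraries, and the interaction gave 16 with DESeq2 and 534 with voom.

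The share of all called control genes on the control side was 36.6% (T3), 86.5% (T6) and 57.3% (T80). It was 34.9% (T3) and 89.6% (T6) with DESeq2, 89.1% (T6) and 59.4% (T80) with no replicate block, and 84% (T6) with no filter. Leaving out 1 control animal gave 30% to 42.2% for T3, 86% to 89.5% for T6 and 54.8% to 61.6% for T80.

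Egfr changed sign in cKO with no replicate block (0.04), without T3 (0.40) and without T80 (0.19), in control without T70 (0.05), and in the interaction with voom (-0.35), without T6 (-0.54) and without T70 (-0.07). Leaving out 1 animal gave Egfr values from -0.61 to 0.40 in cKO, -0.16 to 0.05 in control and -0.54 to 0.46 in the interaction. The cause was not tested for any of these. Of the other values of named genes, 513 kept their direction and side of the threshold, 34 passed it only in the alternative and 16 lost it. Depth limits the lowest levels, such as the 0.0822 CPM of Ttr in rostral T6, which rest on few counts.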
